A study of Homo sapiens with 10 samples.

Results

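The cytosolic ribosomal protein genes encode the protein parts of the 2 subunits of the cytoplasmic ribosome. They were taken from the deposited gene table as every row whose symbol is RPL or RPS followed by a number, with or without a final A or X, together with RPLP0, RPLP1, RPLP2 and RPSA. The rule found 77 of 26040 rows, 46 of the large subunit and 31 of the small subunit. A filter on low values left 75 of them, since RPS18 and RPS9 were listed at about 0. The rule used no measured value, and it leaves out the -like paralogs, the pseudogenes and the ribosomal proteins with other names.

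Most ribosomal proteins are needed in equal numbers, and in mammals most of the genes are transcribed at a high and even rate. Their mRNAs are short and many begin with a C followed by a run of pyrimidines, the terminal oligopyrimidine (TOP) motif, through which mTOR signalling and the RNA-binding protein LARP1 control their translation and stability. Several of the free proteins, foremost RPL5 and RPL11 bound to 5S rRNA, bind the ubiquitin ligase MDM2 and release p53 from it when ribosome assembly is disturbed.

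The cells were U2OS, a human osteosarcoma line that keeps functional p53, grown as lines stably carrying a lentiviral shRNA and selected with puromycin at 1 µg/ml. In 3 shARVCF lines, each with a different shRNA, the target was ARVCF, a cadherin-binding protein related to p120 catenin. The shARVCF nutlin group had 3 libraries, 1 from each line, treated for 24 h with 10 µM nutlin-3a, which blocks the binding of MDM2 to p53. The shARVCF untreated group had 3 libraries from the same lines without drug. The control nutlin group had 3 libraries of a line with a negative control shRNA under the same treatment, and the control untreated group had 1 library. All groups thus share the shRNA vector and the selection, and the labels speak of single clones. The spread in the shARVCF groups is between shRNA lines, and in the control nutlin group between libraries of the same line. Control nutlin replicates 2 and 3 carry later library numbers than the other 8 libraries, and are called the later libraries here. Values are the authors' scaled fragments, an estimated number of fragments per gene after scaling between libraries.

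The start regions below show what the members have in common in sequence and where they do not. They were chosen because RPS19, RPL13, RPL13A and RPL34 were the members called in the shARVCF lines under nutlin-3a, RPL11 binds MDM2, RPLP0 forms the base of the stalk, and RPS29 and RPL4 stood near the 2 ends of the response of the control line and have no listed pyrimidine start. Each shows 15 bases before and 15 after a RefSeq transcript start (GRCh38.p14), 5′ to 3′ on the gene's strand, and the capitals mark a C at the first transcribed base with the run of C and T that follows.
RPS19: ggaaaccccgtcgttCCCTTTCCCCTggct
RPL13: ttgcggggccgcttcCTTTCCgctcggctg
RPL13A: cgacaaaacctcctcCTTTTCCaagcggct
RPL34: aaaggcttttttcttCCTCTTCCggggacg
RPL11: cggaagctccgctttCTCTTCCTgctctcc
RPLP0: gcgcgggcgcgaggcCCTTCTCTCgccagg
RPS29: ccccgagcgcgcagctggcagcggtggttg
RPL4: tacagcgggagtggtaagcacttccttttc
The RPS19 window lies at chr19:41860240-41860269 on the plus strand, that of RPL13 at chr16:89560667-89560696 (plus), that of RPL13A at chr19:49487593-49487622 (plus) and that of RPL34 at chr4:108620561-108620590 (plus). The RPL11 window lies at chr1:23691791-23691820 (plus), that of RPLP0 at chr12:120201097-120201126 (minus), that of RPS29 at chr14:49598696-49598725 (minus) and that of RPL4 at chr15:66504841-66504870 (minus). RefSeq lists several starts for some genes, and a start with the run is shown where there is one.

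Of the 77 members, 62 had an entry among the RefSeq promoters. A C at a listed start followed by at least 4 further pyrimidines was present in 46 of these 62 genes (74.2%), against 4.98% of 27243 other genes. The longest such run among the members had 19 bases. Within the window of 250 bases before to 50 bases after the start, the core CCGGAA of the ETS factor motif, or its complement TTCCGG, was present in 56.5% of the members and in 20.0% of the other genes. The letters TATAAA or TTTATA were present in 8.06% of the members and in 14.0% of the other genes. These are matches of letters in a window, not sites shown to be bound.

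ARVCF itself was lower in the shARVCF lines under nutlin-3a, with 1284, 1188 and 1232 scaled fragments against 2928, 2571 and 2376 in the control nutlin libraries. Without drug it had 292, 343 and 338 in the shARVCF lines against 618 in the control library. The library totals lay between 17821751 and 19903778 scaled fragments. The 7 osteoblast and mesenchymal markers summed to between 220300 and 404800 per library, though COL1A2 among them stayed between 1.83 and 15.5 and was below 10 in 7 libraries. The sums of 3 endothelial markers stayed between 46.6 and 107, those of 3 epithelial markers between 64.7 and 183, and those of 4 blood markers between 1.90 and 13.6, with CD3E and CD14 below 10 in every library.

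With nutlin-3a the ribosomal protein mRNAs took a share of the RNA well above the untreated one in the control line, and a share close to the untreated one in the shARVCF lines. The members together made up 10.3%, 9.01% and 9.39% of the scaled fragments of the control nutlin libraries, against 5.07% of the control untreated library. In the shARVCF lines they made up 5.53%, 5.28% and 5.91% with nutlin-3a, against 5.35%, 4.77% and 5.24% without. The 3 control nutlin libraries thus stood apart from the other 7, which all lay within 4.77% and 5.91%. In bulk RNA a change in how much RNA each cell holds and a change in the number of cells cannot be told apart.

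To place every library on a common scale, the log2 value of each member, after adding 1, was set against the mean of its 4 group means, and the median over the 75 members was taken as the shift of that library. The shift was 0.89, 0.65 and 0.70 in the control nutlin libraries, against -0.31 in the control untreated library. It was -0.21, -0.20 and -0.06 in the shARVCF nutlin libraries, against -0.24, -0.39 and -0.27 in the shARVCF untreated libraries. Over all 14955 tested genes the same median stayed between -0.06 and 0.04 in every library. Both subunits moved together, with shifts of 0.89 for the large and 0.89 for the small subunit in control nutlin replicate 1, and of -0.40 and -0.38 in shARVCF untreated replicate 2.

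**Figure D1:**
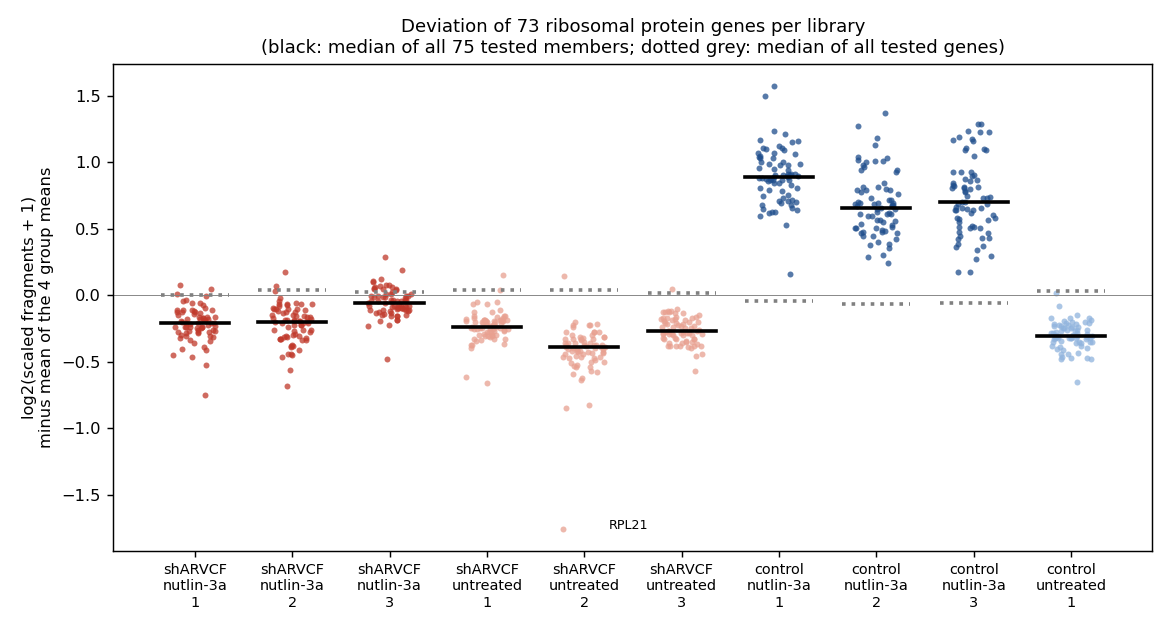
Deviation of 73 of the 75 tested members in each library, in log2 units from the mean of the 4 group means of that gene. Points are genes, black bars the median of all 75 tested members and dotted grey bars the median of all tested genes. The bars of the control nutlin libraries lie at 0.89, 0.65 and 0.70, and those of the other 7 libraries between -0.39 and -0.06.

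The deviations of the members also spread more in the control nutlin libraries. Deviations are taken from the mean of the group means, so a group that differs from the others spreads more by this centring alone. The same applies to all tested genes. Whether the spread within a library was wider apart from the centring was not tested. The scaled median absolute deviation (MAD) over the members was 0.22, 0.22 and 0.28 in those 3 libraries, against 0.09 in the control untreated library. It was 0.10, 0.14 and 0.09 in the shARVCF nutlin libraries, against 0.08, 0.11 and 0.11 in the shARVCF untreated libraries. Over all tested genes the spread was also wider in the control nutlin libraries, with a scaled MAD between 0.77 and 0.80, against 0.40 in the control untreated library. The standard deviation, which outlying genes drive, was 0.54 in shARVCF nutlin replicate 1 and 0.46 in shARVCF untreated replicate 2, and between 0.13 and 0.29 in the other 8 libraries.

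Members farther than 3 scaled MAD from their library's median were few. They numbered 3, 2 and 3 in the shARVCF nutlin libraries, 5, 5 and 1 in the shARVCF untreated libraries, 3, 2 and 0 in the control nutlin libraries and 3 in the control untreated library. RPS26 was such an outlier in 7 libraries, and RPL21, RPL41 and RPS19 in 3 each. RPL15 and RPLP2 were outliers in 1 library each. RPS19 was low in 3 libraries without drug, in shARVCF untreated replicates 1 and 2 and in the control untreated library.

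RPS18, of the small subunit, was listed at 0 in 9 libraries and at 0.98 in shARVCF untreated replicate 2. RPS9, also of the small subunit, was listed at 82.2 in shARVCF untreated replicate 1 and at or close to 0 in the other 9.

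RPL21, of the large subunit, was listed at 259, 231 and 246 scaled fragments in the shARVCF nutlin libraries and at 300.2, 79.4 and 247 in the shARVCF untreated libraries. It had 806, 376 and 448 in the control nutlin libraries, against 234 in the control untreated library. The 3 control nutlin values lay above all others, but the fit made no call (log2 fold change 1.13, SE 0.70, adjusted p = 0.20 in limma). RPS26, of the small subunit, had 1617, 1842 and 3319 in the shARVCF nutlin libraries and 1777, 1512 and 2093 in the shARVCF untreated libraries. It had 3033, 7039 and 6651 in the control nutlin libraries, against 2760 in the control untreated library. Control nutlin replicate 1 of RPS26 was close to the untreated library, and the later libraries were high. Near-identical processed copies of many members exist in the genome, so that the authors' counting could split reads between them. Whether this bears on the values of RPL21 and RPS26 was not tested. The 22 pseudogene rows of the members summed to 2047 to 5488 scaled fragments per library, 0.22% to 0.33% of the member sum, and the read-through rows RPL17-C18orf32, RPL36A-HNRNPH2 and RPS10-NUDT3 reached at most 146, 597 and 431. RPL34-AS1, antisense to RPL34, reached at most 37.0.

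**Figure D2:**
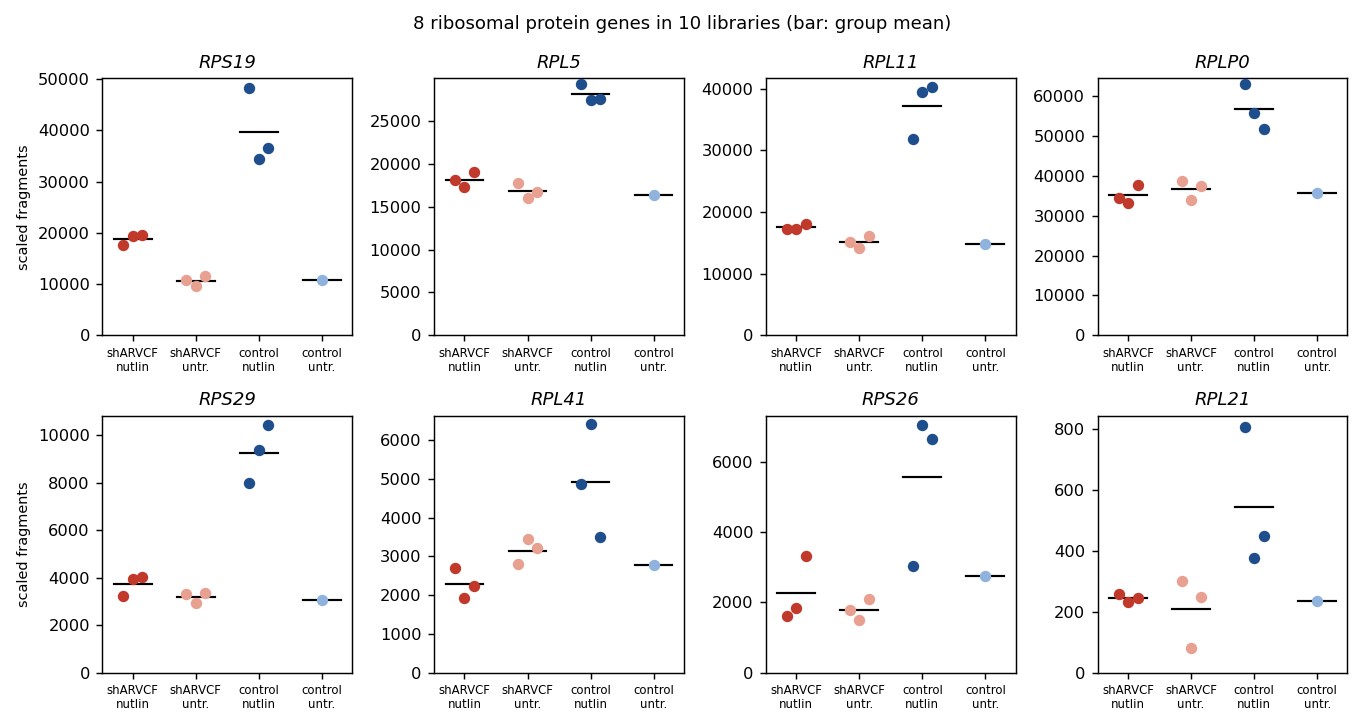
Scaled fragments of 8 members in the 10 libraries, as points by group with a bar at the group mean. All axes start at 0. The control nutlin libraries stand above all others for RPS19, RPL5, RPL11, RPLP0, RPS29, RPL41 and RPL21, while those of RPS26 overlap the others.

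Levels between genes were compared as scaled fragments per kilobase of coding sequence. RPLP1, a stalk protein of the large subunit, was the highest member in all 4 groups, at 87780, 78140, 199700 and 82230 in shARVCF nutlin, shARVCF untreated, control nutlin and control untreated libraries. RPS24 and RPL13A followed in every group. The member median was 22570 with and 20370 without nutlin-3a in the shARVCF lines, and 41470 with and 20030 without in the control line. RPL21, RPS26 and RPL34 were among the lowest 4 in each group.

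In the shARVCF lines 4 members were called higher with nutlin-3a and none lower. A single model was fitted with limma to all genes and 10 libraries, and a gene was called at a Benjamini-Hochberg adjusted p under 0.05. Of all tested genes 21% were called higher and 21.7% lower in this comparison, so the members' 4 of 75 lay below the background. At an unadjusted p under 0.05 limma gave 10 higher and 1 lower. The median log2 fold change of the members was 0.14 (interquartile range 0.05 to 0.23), against -0.00 over all tested genes. The 3 nutlin libraries lay above the 3 untreated libraries of the shARVCF lines for 29 of the 77 members and below them for RPL41. The groups overlapped for 47, among them RPS18 and RPS9, which did not pass the filter. The share of all tested genes that separated in this way was not computed, so these counts have no background beside them. With the shRNA line as a replicate block 9 members were called, all higher. The count was 17 without control nutlin replicate 1, 7 without control nutlin replicate 2, 1 without either library of line 2, and 2 without either library of line 3.

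RPS19, a small subunit protein whose gene is the most often mutated in Diamond-Blackfan anaemia, changed most. It had 17630, 19320 and 19520 scaled fragments in the shARVCF nutlin libraries, against 10830, 9643 and 11480 in the shARVCF untreated libraries, a log2 fold change of 0.82 (SE 0.13, 1.77-fold, adjusted p = 0.00021). The groups did not overlap, and RPS19 was higher with nutlin-3a in all 3 lines, by 0.70, 1.00 and 0.77. RPL21 had a larger ratio in line 2. RPS19 had, in the control line, 48240, 34380 and 36560 scaled fragments with nutlin-3a, against 10860 without, a log2 fold change of 1.85 (SE 0.18, adjusted p = 3.2e-06), the largest of all members. RPS19 lies at chr19:41859918-41872926 on the plus strand with 6 exons (GENCODE release 29).

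The other 3 called members were proteins of the large subunit. RPL13 had 12220, 12600 and 13330 scaled fragments in the shARVCF nutlin libraries, against 10510, 8898 and 10290 in the untreated ones, a log2 fold change of 0.36 (SE 0.12, adjusted p = 0.024). RPL34 had 3065, 3498 and 3196, against 2702, 2493 and 2462, a log2 fold change of 0.35 (SE 0.11, adjusted p = 0.020). RPL13A, also part of a complex that silences translation of interferon-response mRNAs, had 37500, 39980 and 37180, against 32860, 31220 and 29420, a log2 fold change of 0.29 (SE 0.11, adjusted p = 0.044). For each of the 3 the groups did not overlap. RPL13A lost its call in 12 of 26 other settings, RPL13 in 5 and RPL34 in 3, with largest adjusted p-values of 0.17, 0.099 and 0.081, while RPS19 kept its call in all 26 (largest adjusted p = 0.0013). RPL13 lost it without either library of line 2 or without shARVCF nutlin replicate 3, RPL34 without either library of line 2 or without shARVCF untreated replicate 3, and RPL13A when any of the 6 shARVCF libraries or control nutlin replicate 3 was left out.

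At the other end stood RPL41, the smallest ribosomal protein. It had 2693, 1936 and 2236 scaled fragments in the shARVCF nutlin libraries, against 2789, 3445 and 3213 in the untreated ones, a log2 fold change of -0.47 (SE 0.20, adjusted p = 0.082). The nutlin libraries lay below the untreated ones without a call. RPS2, at the mRNA entry side of the small subunit, had 42150, 35920 and 42530, against 45580, 41110 and 45700, a log2 fold change of -0.14 (SE 0.10, adjusted p = 0.32). RPSA, a small subunit protein also known as the laminin receptor, had 22590, 20180 and 22170, against 24370, 22030 and 22450 (log2 fold change -0.08, adjusted p = 0.65).

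The lines differed in their median response. Line 1 had a median log2 ratio of 0.01 over the members, with 42 of 75 above 0, line 2 had 0.21 with 63 above 0, and line 3 had 0.22 with 70 above 0. Over all tested genes the same medians were -0.04, 0.00 and 0.01. Of the 75 members, 40 were higher with nutlin-3a in 3 lines, 23 in 2 lines, 9 in 1 line, and RPL41, RPS2 and RPSA in none.

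In the control line 72 of 75 members were called higher with nutlin-3a and none lower, and none was lower at an unadjusted p under 0.05 in limma either. The untreated control group has no replicate, and the fit takes its spread from the other groups. Among all tested genes 25.1% were called higher and 32% lower in limma at the same threshold. The median log2 fold change of the members was 1.07 (interquartile range 0.91 to 1.23), against -0.10 over all tested genes. The 3 control nutlin libraries lay above all 7 other libraries for 73 of the 75 members, and RPS26 was an exception. The share of all tested genes that separated in this way was not computed, so it is not known how particular this is to the members. RPS26 and RPL21 were among the 3 members without a call.

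Behind RPS19 the largest log2 fold changes were those of RPS29, RPL36 and RPL27A. RPS29, a small zinc-binding protein of the small subunit, had 8003, 9361 and 10440 scaled fragments with nutlin-3a, against 3071 without, a log2 fold change of 1.58 (SE 0.17, 3.00-fold, adjusted p = 7.0e-06). In the shARVCF lines it had 3230, 3942 and 4043, against 3294, 2948 and 3340 (log2 fold change 0.22, adjusted p = 0.15). RPL36, of the large subunit, had 8989, 8317 and 10000 in the control nutlin libraries, against 3139 in the untreated one, a log2 fold change of 1.53 (SE 0.19, adjusted p = 2.3e-05). In the shARVCF lines RPL36 had 3347, 3931 and 4764, against 3469, 2839 and 3505 (log2 fold change 0.29, adjusted p = 0.10). Control and shARVCF libraries of RPS29 and RPL36 overlapped without drug and were apart with it.

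The smallest changes among called members were those of RPL4, RPL15 and RPS2. RPL4, at the exit tunnel of the large subunit, had 87860, 70380 and 68960 scaled fragments in the control nutlin libraries, against 50100 in the untreated one, a log2 fold change of 0.59 (SE 0.15, adjusted p = 0.0052). RPL4 had 54940, 54580 and 59750 in the shARVCF lines with nutlin-3a, against 50190, 49000 and 50980 without. RPL15, of the large subunit, had 25930, 18930 and 18050, against 13720, a log2 fold change of 0.59 (SE 0.19, adjusted p = 0.020). RPL15 had 16900, 14850 and 16090 in the shARVCF nutlin libraries, against 16450, 13200 and 13910 in the untreated ones. RPS2 had 79490, 74920 and 67010, against 46910, a log2 fold change of 0.65 (SE 0.15, adjusted p = 0.0025). RPL41 had 4864, 6401 and 3509 in the control nutlin libraries, against 2765 in the untreated one, a log2 fold change of 0.79 (SE 0.28, adjusted p = 0.033), with libraries that spread more widely than those of most members.

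**Figure D3:**
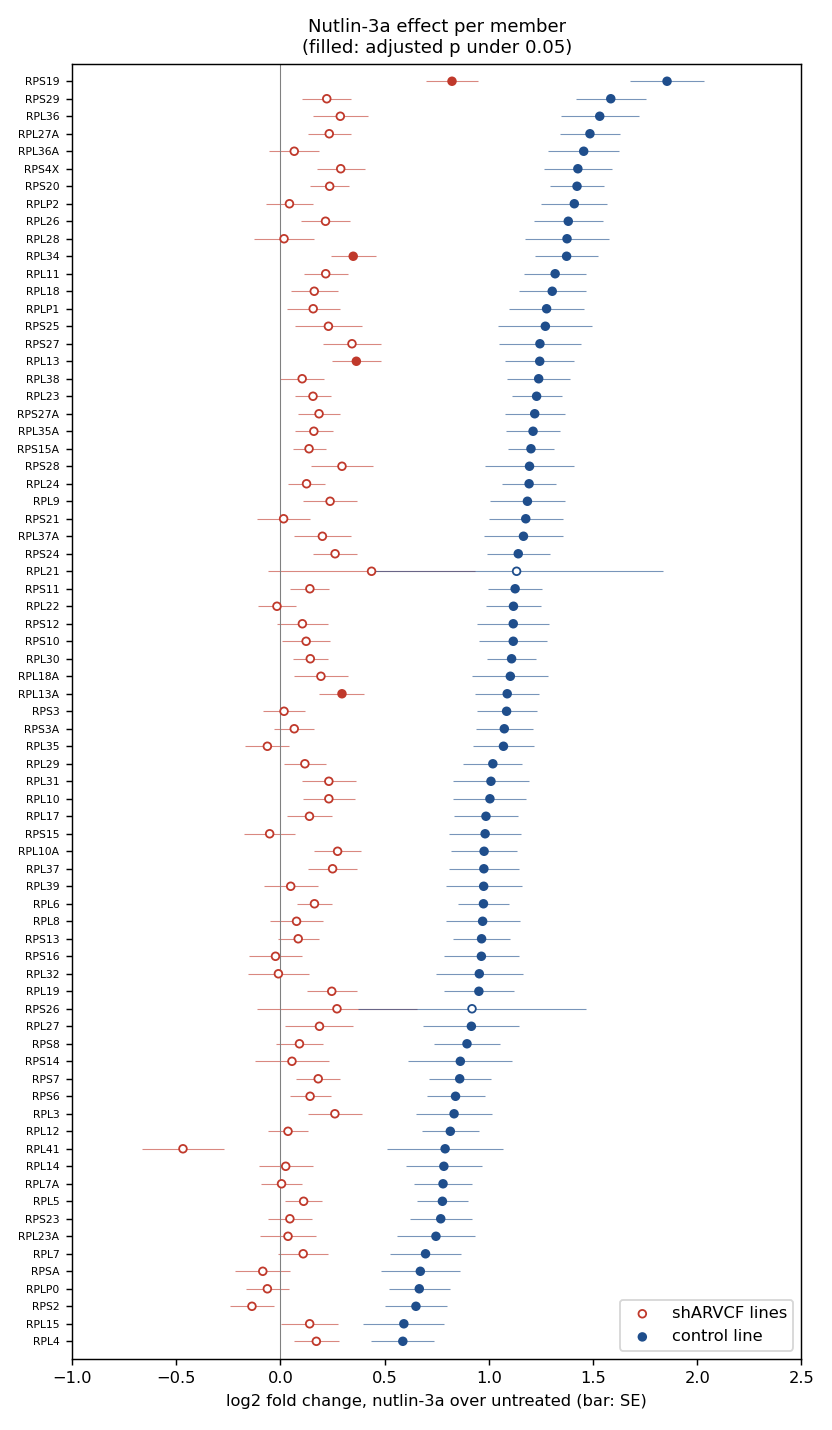
Log2 fold change of nutlin-3a over untreated cells for 73 of the 75 tested members, red in the shARVCF lines and blue in the control line, with SE bars, ordered by the control line. Filled points have an adjusted p under 0.05 in limma, 4 in the shARVCF lines and 71 of those drawn in the control line. RPS19 leads in both.

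Several members bind MDM2. Of 14 such members from a list drawn from general knowledge, 13 were called higher in the control line (median log2 fold change 1.15) and none in the shARVCF lines (median 0.20). Of all 75 tested members, 72 were called higher in the control line and 4 in the shARVCF lines, against 25.1% and 21% of all tested genes. The 14 thus followed the members as a whole, and these counts do not set them apart. RPL5 had 18110, 17300 and 19090 scaled fragments in the shARVCF nutlin libraries, against 17720, 16020 and 16710 in the untreated ones, a log2 fold change of 0.11 (SE 0.09, adjusted p = 0.33). The control line had 29310, 27490 and 27560, against 16400, a log2 fold change of 0.78 (SE 0.12, adjusted p = 0.00017). RPL11 had 17280, 17200 and 18120 in the shARVCF nutlin libraries, against 15070, 14130 and 16120 in the untreated ones (log2 fold change 0.22, adjusted p = 0.12). RPL11 in the control line had 31860, 39510 and 40350, against 14860, a log2 fold change of 1.32 (SE 0.15, adjusted p = 1.2e-05). No test of the difference between the 2 genes was made, and in the fit of the first 8 libraries their log2 fold changes were 0.84 for RPL5 and 1.10 for RPL11.

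RPL26, a large subunit protein that binds MDM2, had 8752, 9056 and 9814 scaled fragments in the shARVCF nutlin libraries, against 8049, 7752 and 7952 in the untreated ones (log2 fold change 0.22, adjusted p = 0.16). The control line had 17050, 20490 and 24310, against 7833, a log2 fold change of 1.38 (adjusted p = 2.0e-05). RPL22, a large subunit protein that also regulates splicing, had 4323, 4126 and 4664 in the shARVCF nutlin libraries, against 4501, 4216 and 4539 in the untreated ones (log2 fold change -0.02, adjusted p = 0.91). RPL22 in the control line had 8164, 9111 and 9817, against 4148, a log2 fold change of 1.12 (adjusted p = 1.7e-05). RPS27, of the small subunit, had 14790, 14100 and 15300 in the shARVCF nutlin libraries, against 12950, 10610 and 11380 in the untreated ones (log2 fold change 0.34, adjusted p = 0.063). RPS27 in the control line had 33230, 23350 and 22590, against 10960 (log2 fold change 1.25, adjusted p = 0.00016).

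The stalk of the large subunit, where translation factors bind, gave different values for its members. RPLP0, its base and a common reference gene in quantitative PCR, had 34360, 33260 and 37710 scaled fragments in the shARVCF nutlin libraries, against 38740, 33940 and 37390 in the untreated ones (log2 fold change -0.06, adjusted p = 0.66). RPLP0 in the control line had 62960, 55740 and 51810, against 35700, a log2 fold change of 0.67 (SE 0.15, adjusted p = 0.0018). RPLP2 had 3199, 3756 and 4141 in the shARVCF nutlin libraries, against 3796, 3189 and 3759 in the untreated ones (log2 fold change 0.04, adjusted p = 0.79). RPLP2 in the control line had 9128, 9256 and 10330, against 3595, a log2 fold change of 1.41 (SE 0.16, adjusted p = 1.1e-05). After removal of the dependence on length and GC content, described with transcript length, RPLP2 had a log2 fold change of 0.27 (adjusted p = 0.17) and RPLP0 of -0.05 (adjusted p = 0.79), and neither was called. RPLP1 had 1.28 before and 0.83 (adjusted p = 0.0016) after this removal.

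Other ways of dividing the members gave like medians. In the control line the median log2 fold change was 1.04 for 46 large subunit and 1.08 for 29 small subunit members, and 45 and 27 of them were called higher. It was 1.12 for 17 genes mutated in Diamond-Blackfan anaemia, an inherited failure of red cell production, with 15 called. Members with an snoRNA in an intron had a median of 0.99 (27 of 28 called), against 1.12 for those without (45 of 47 called). Members with a listed pyrimidine start had a median of 1.13 (43 of 44 called), against 0.96 for those with an entry and no such start (15 of 16 called). In the shARVCF lines all 4 called members were among the 44 with a pyrimidine start. Most tested members with an entry have such a start (44, against 16 without), so 4 calls show no link to it.

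Under nutlin-3a the shARVCF lines had 73 of 75 members called lower than the control line and none higher, nor was any higher at an unadjusted p under 0.05 in limma. This comparison uses the control nutlin libraries of the previous one, so the 2 are not independent. Among all tested genes 26.1% were called lower and 32.3% higher in limma. The median log2 difference of the members was -0.94 (0.52-fold, interquartile range -1.06 to -0.79), against 0.06 over all tested genes. RPS26 was called lower (-1.28, adjusted p = 0.023) and lost its call in 9 of 25 other settings, among them those without shARVCF nutlin replicate 1 or 2 or without either later control nutlin library, and turned in 1 more. RPL21 was not called, with a log2 difference of -1.06 (adjusted p = 0.10).

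The largest differences between the lines under drug were those of RPL28, RPLP2 and RPL36A. RPL28, of the large subunit, had 9383, 9628 and 10940 scaled fragments in the shARVCF nutlin libraries, against 20530, 31020 and 30070 in the control nutlin libraries, a log2 difference of -1.43 (SE 0.14, adjusted p = 4.1e-06). Without drug RPL28 had 10420, 9287 and 9855 in the shARVCF lines, against 10310 in the control line. RPL36A, of the large subunit, had 9089, 8067 and 9943 in the shARVCF nutlin libraries, against 18970, 24750 and 24390 in the control nutlin libraries, a log2 difference of -1.32 (SE 0.12, adjusted p = 1.9e-06). Without drug RPL36A had 9167, 8092 and 8561 in the shARVCF lines, against 8222 in the control line. For both genes the control library lay within the range of the shARVCF lines without drug, and the lines were well apart with it. RPL15 and RPL4 differed least among the called members, by -0.38 (adjusted p = 0.031) and -0.42 (adjusted p = 0.0049).

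Without drug no member was called between the shARVCF lines and the control line in limma, and none reached an unadjusted p under 0.05. Among all tested genes 0.0201% were called in either direction, 3 genes in all, and the control group had 1 library. The median log2 difference of the members was 0.01, against -0.01 over all tested genes. RPS26 was the lowest at -0.63, followed by RPL21 at -0.37, and RPL41 was high at 0.18. RPS28, of the small subunit, had 2102, 1611 and 1918 scaled fragments in the shARVCF untreated libraries, against 1998 in the control untreated library (log2 difference -0.10, SE 0.21). RPS25, a small subunit protein used by some viral internal entry sites, had 6405, 5925 and 6362, against 5654 (log2 difference 0.14, SE 0.23). The values of the control library lay inside the range of the shARVCF lines or close to it for both.

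The difference of the nutlin-3a effects, that of the shARVCF lines minus that of the control line, was tested as an interaction term. It was negative for all 75 members and called for 65, with a median of -0.91 on the log2 scale (interquartile range -1.07 to -0.76), against 0.07 over all tested genes. Of all tested genes 12.5% were called lower and 19.3% higher in limma. RPL36A had the largest difference at -1.39 (SE 0.21, adjusted p = 0.00047), followed by RPLP2 at -1.37 (adjusted p = 0.00034) and RPS29 at -1.36 (adjusted p = 0.00049). RPS19 differed by -1.03 (SE 0.22, adjusted p = 0.0038), RPL11 by -1.10 (SE 0.18, adjusted p = 0.00089) and RPL5 by -0.67 (SE 0.15, adjusted p = 0.0053). After removal of the dependence on length and GC content the calls of RPS19 (-0.61, adjusted p = 0.10), RPL5 (-0.28, adjusted p = 0.25) and RPLP2 (-0.40, adjusted p = 0.20) were lost. Those of RPL36A (-0.99, adjusted p = 0.0093), RPS29 (-1.03, adjusted p = 0.010) and RPL11 (-0.63, adjusted p = 0.046) were not. RPS19 lost this call in 3 of 25 other settings and RPLP2 in 4. RPL3, RPL4, RPL7, RPL15, RPL21, RPL27, RPS14 and RPS26 were among the 10 members without a call.

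Transcript length moved with these results. In the control nutlin libraries short transcripts of all kinds were high and long ones low: the rank correlation of a gene's deviation with its spliced length, across all tested genes, was -0.49, -0.42 and -0.44, while in the other 7 libraries it was between 0.18 and 0.30. Genes of 1 library share its depth and composition, so these values describe the libraries relative to each other. Deviations are taken from the mean of the group means, so a trend in the control nutlin group tends to give the other groups an opposite one. The opposite sign in the other 7 libraries is therefore not a separate result. Of the 75 members, 52 lay in the shortest decile of the genes, with spliced lengths up to 1162 nt. The other genes of that decile had median deviations of 0.59, 0.45 and 0.47 in the control nutlin libraries, against -0.18 in the control untreated library. In the control line nutlin-3a gave the 52 short members a median log2 fold change of 1.04 with 49 called higher, and the 1424 other short genes a median of 0.68 with 46.3% called higher. The median of the short members thus lay inside the interquartile range of the other short genes, -0.03 to 1.203, and 13 of the 52 lay above it.

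**Figure D4:**
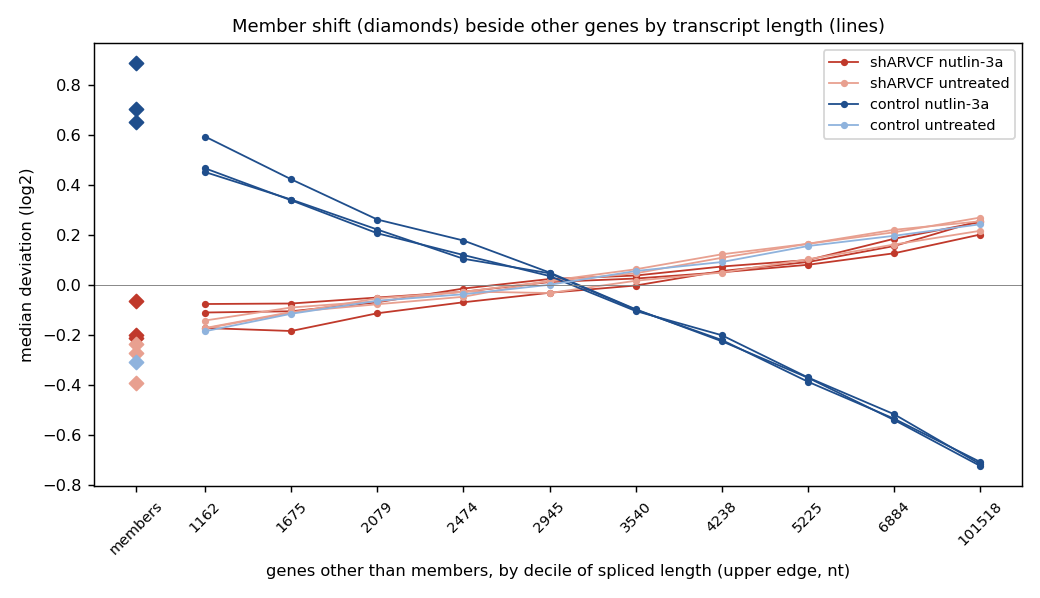
Median deviation in log2 units of genes other than the members, by decile of spliced length, as a line for each library, with the member shift of that library as a diamond at the left. The 3 control nutlin lines slope downward from medians of 0.59, 0.45 and 0.47 in the shortest decile, and the member diamonds of those libraries lie above them at 0.89, 0.65 and 0.70.

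The fit was repeated after the dependence of each library on spliced length and GC content had been removed. With nutlin-3a in the control line 37 members were then called higher, all of them called before, and 1 was called lower, RPS2. The median log2 fold change was 0.49, and over all genes 20.6% were called higher and 28.1% lower. RPS19 had a log2 fold change of 1.38 (adjusted p = 7.9e-05), RPL28 of 1.484 (adjusted p = 3.4e-05) and RPL11 of 0.79 (adjusted p = 0.0012). RPL28 was entered at 4796 nt, of which 411 are coding, and RPS19 at 2359 nt, of which 435 are coding. RPL28, treated as long, rose from 1.375, as did RPL27A (4916 nt, 1.485 to 1.951) and RPL37 (7686 nt, 0.976 to 1.845). The member median fell from 1.07 to 0.49. These lengths need not be those of the mRNAs measured. RPL5 had 0.38 (adjusted p = 0.020), and lost its call with the longest transcript (0.27, adjusted p = 0.084) and with the first 8 libraries alone (adjusted p = 0.067). RPL36 had 0.32 (adjusted p = 0.19) and RPLP0 -0.05 (adjusted p = 0.79). Under nutlin-3a 43 members were lower in the shARVCF lines, with a median of -0.45, while over all genes 14.3% were called lower and 23.5% higher. The difference of the effects was called for 23, all lower, with a median of -0.39, while over all genes 4.51% were called lower and 8.59% higher. With nutlin-3a in the shARVCF lines RPL23, RPL34 and RPS19 were called higher and RPL35, RPL41 and RPS2 lower, which is well below the 21.8% and 22.6% called over all genes. The part that transcript length has in the member shift beyond this removal was not tested.

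The later control nutlin libraries differed from replicate 1 of the same group. Both lay below replicate 1 for 55 of 75 members and above it for 14, with a median log2 ratio of -0.24. The ratio of their mean to replicate 1 varied over the members with an SD of 0.34, against 0.16 for the ratio of replicate 3 to replicate 2. RPS26 was highest, at 1.17, followed by RPL28 at 0.57. RPL21 was lowest at -0.97, while RPS14 was at -0.76 and RPL27 at -0.61. RPS14, of the small subunit platform, had 23340, 14300 and 13280 scaled fragments in control nutlin replicates 1 to 3, against 9029 in the control untreated library. RPL41 set the later libraries apart from each other, at 6401 and 3509. Against the single control untreated library, which the 3 ratios share, the median log2 ratio of the members was 1.21, 0.94 and 1.01, above 0 for all 75, while over all tested genes it was -0.07, -0.10 and -0.09.

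**Figure D5:**
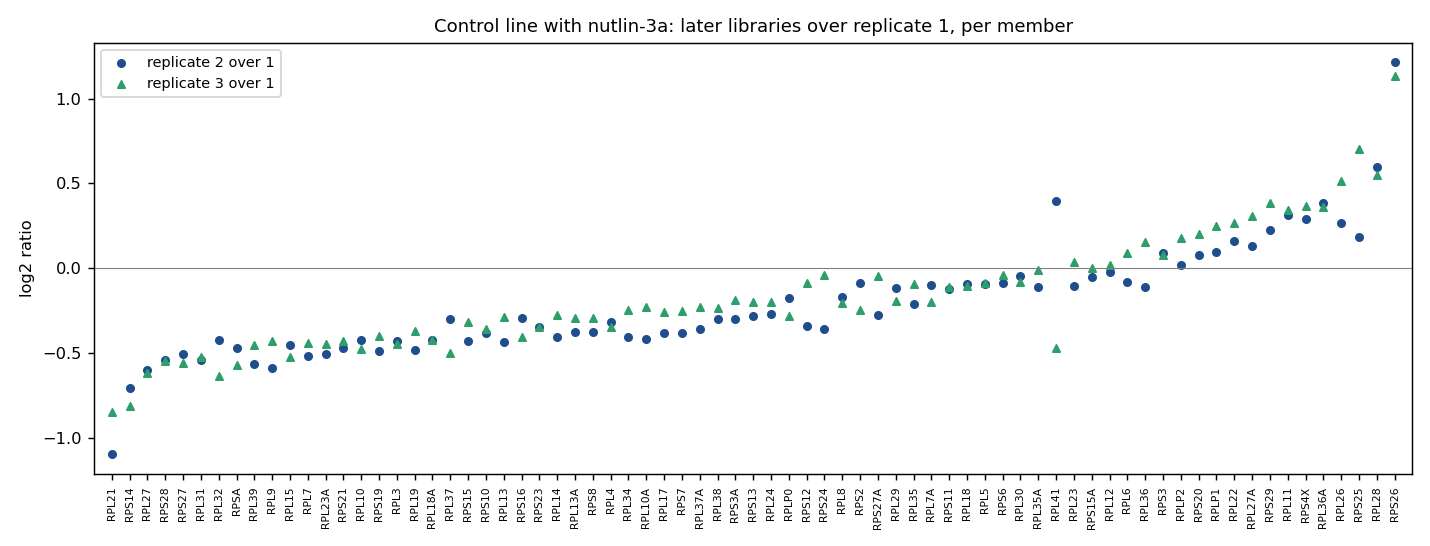
Log2 ratio of control nutlin replicates 2 and 3 to replicate 1 for 73 of the 75 tested members, ordered by their mean. RPL21 lies lowest at a mean of -0.97 and RPS26 highest at 1.17. Replicates 2 and 3 lie close together for most members. They lie farthest apart for RPL41 and RPS25, with log2 ratios of replicate 3 to replicate 2 of -0.867 and 0.523.

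Ribosomal proteins with other names were also measured. FAU, which encodes eS30 fused to a ubiquitin-like protein, and GNB2L1, the older symbol of RACK1, were called higher with nutlin-3a in the control line, by 1.26 and 0.83, and neither was called in the shARVCF lines. The difference of the effects was called for both. Of 7 tested -like paralogs, 4 were called higher and 2 lower in the control line, where 25.1% and 32% of all tested genes were. RPS27L, a known p53 target, was higher in both: it had 4781, 5083 and 5282 scaled fragments in the shARVCF nutlin libraries, against 1678, 1875 and 1975 in the untreated ones (log2 fold change 1.46, adjusted p = 8.3e-06). RPS27L in the control line had 9174, 5727 and 6294, against 1920 (log2 fold change 1.85, adjusted p = 1.5e-05), and the difference of the effects was not called (-0.39, adjusted p = 0.27). RPL39L was lower in both, by -1.92 in the shARVCF lines and -1.20 in the control line. RPL7L1 was called lower in the control line and not in the shARVCF lines. It had 477, 415 and 399 with nutlin-3a against 998 without in the control line, and its difference of effects was 1.30 (adjusted p = 0.00020).

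Other mRNAs that start with a TOP motif were called in part. Of 17 such genes, mainly translation factors, 4 were called higher and 2 lower in the shARVCF lines, with a median log2 fold change of 0.05, where 21% and 21.7% of all tested genes were. In the control line 8 were called higher and HNRNPA1 lower, with a median of 0.61, where 25.1% and 32% of all tested genes were. The difference of the effects was called lower for 7, against 12.5% of all tested genes. EEF1B2, an elongation factor subunit, had a log2 fold change of -0.01 (adjusted p = 0.94) in the shARVCF lines and 0.88 (adjusted p = 7.2e-05) in the control line. Among 56 ribosome biogenesis genes, 8 were called higher and 16 lower in the shARVCF lines, where 21% and 21.7% of all tested genes were. In the control line 19 were called higher and 13 lower, where 25.1% and 32% of all tested genes were. Under nutlin-3a 8 were higher and 28 lower in the shARVCF lines than in the control line, against 32.3% and 26.1% of all tested genes. The difference of the effects was called higher for 8 and lower for 16, against 19.3% and 12.5% of all tested genes. PES1, of the complex that matures the large subunit, had 0.16 (adjusted p = 0.14) in the shARVCF lines and 1.06 (adjusted p = 1.1e-05) in the control line. POLR1A, the largest subunit of RNA polymerase I, had 0.27 (adjusted p = 0.048) in the shARVCF lines and -1.24 (adjusted p = 1.3e-05) in the control line.

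Of 18 genes for control of TOP mRNAs and mTOR, 4 were called higher and 5 lower in the shARVCF lines, where 21% and 21.7% of all tested genes were. In the control line 5 were called higher and 7 lower, where 25.1% and 32% of all tested genes were. These counts do not set the list apart from all tested genes. SESN2, a p53 target that inhibits mTOR complex 1, had log2 fold changes of 2.38 (adjusted p = 1.6e-07) in the shARVCF lines and 2.42 (adjusted p = 2.3e-06) in the control line. MTOR, the kinase, had -0.14 (adjusted p = 0.20) in the shARVCF lines and -1.25 (adjusted p = 2.2e-06) in the control line. LARP1, which binds the TOP motif, had -0.18 (adjusted p = 0.13) in the shARVCF lines and -1.27 (adjusted p = 5.5e-06) in the control line. The difference of the effects was 1.11 for MTOR (adjusted p = 0.00016) and 1.08 for LARP1 (adjusted p = 0.00042). Both transcripts are long, and the longest decile of the genes other than members had median deviations of -0.72, -0.71 and -0.72 in the control nutlin libraries.

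Among 11 tested genes of the 5S RNP and MDM2 axis, 3 were called higher and 4 lower in the shARVCF lines, where 21% and 21.7% of all tested genes were. In the control line 5 were called higher and 3 lower, where 25.1% and 32% of all tested genes were. With 11 genes, no trait of the list is read from these counts. MDM2 had 21990, 18850 and 23800 scaled fragments in the shARVCF nutlin libraries, against 2051, 2019 and 2787 in the untreated ones, a log2 fold change of 3.25 (adjusted p = 3.4e-09). MDM2 in the control line had 11200, 9497 and 10730, against 2244, a log2 fold change of 2.22 (adjusted p = 1.2e-06). The difference was 1.03 (adjusted p = 0.0054), opposite in sign to that of the members. Of all tested genes 19.3% were called higher in this difference. Whether transcript length bears on the contrast between MDM2 and the members was not tested. GLTSCR2, the older symbol of NOP53, which binds 5S RNPs, was higher by 0.45 (adjusted p = 0.0012) in the shARVCF lines and 1.195 (adjusted p = 6.1e-06) in the control line.

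The genes most like the member shift over the 10 libraries, among 4386 others with a mean of at least 1000 scaled fragments, were DGUOK, MRPL14, MAP2K2, ATOX1 and CRIP2, with Pearson r of 0.997, 0.995, 0.994, 0.993 and 0.993. In all, 65 of the 4386 had an r above 0.98. The 10 libraries fall into 2 clusters, the 3 control nutlin libraries and the other 7, so these values describe a shared separation. DGUOK, a mitochondrial nucleoside kinase, had 1098, 1095 and 1284 scaled fragments in the shARVCF nutlin libraries and 1086, 1032 and 1071 in the untreated ones. It had 2482, 2204 and 2165 in the control nutlin libraries, against 1049 in the untreated one.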

How the data were processed

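Poly(A) RNA was sequenced from 10 U2OS libraries after stranded library preparation, per the labels' protocols. Per the submitters' processing notes, bcl2fastq 1.8.3, HISAT2 2.1.0 and Cuffnorm 2.2.1 were used with hg38 (the annotation was not given in the sources used here). Each deposited signal value is the authors' estimated fragments per gene, scaled between libraries and not whole counts. No depth in reads was used, so no counting intervals are given.

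Values were analysed as log2(value + 1) with limma 3.58.1 in R 4.3.3. The filter asked for 10 or more in 3 or more libraries (14955 genes). The model had 4 group means and 6 residual degrees of freedom, with moderated variances (trend and robust options). Adjusted p-values are two-sided, Benjamini-Hochberg over all tested genes, called at 0.05. Fold changes include the pseudocount and so understate those of low genes. The script was tested on simulated data. Libraries are not stated to come from separate cultures, so p-values measure the spread between these libraries.

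GENCODE release 29 held 24016 of the 26040 symbols under the same name and 718 under a newer one, and 1306 were not found. Length, GC and exons are those of the principal transcript, which need not be the mRNA measured; the length and GC fit (splines with 4 degrees of freedom) covered 14732 genes. Start windows come from RefSeq. Members, lists, named genes and settings were chosen with earlier results of these data known. The named members are the 3 highest and 3 lowest per comparison, those whose call departs from the rest, repeated outliers, and RPL5, RPL11, RPL22, RPL26, RPS27 and RPLP0; further members named in passing were chosen after their values were seen. Residuals of shARVCF libraries correlated across genes with the other library of that line (r 0.275, 0.288 and 0.327, negative with other lines), and the replicate numbers name the shRNA line, so they pair these libraries. Alternatives were pseudocounts of 0.1 and 10, no filter, a filter of 100, 4 other scalings, library series as a term, the first 8 libraries alone, the length and GC removal, each library left out and a block on line. A few genes and lists' members are not reported or drawn here.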

Additional observations from a re-analysis of the deposited data

Results flagged for a closer look

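The nutlin-3a effect of 65 members was lower in the shARVCF lines than in the control line, by a test of the difference itself (interaction term, limma, adjusted p under 0.05 over all tested genes). The median difference over 75 members was -0.91 on the log2 scale, against 0.07 over all tested genes, of which 12.5% were called lower. The control effect rests on 1 untreated library. After removal of the trend with transcript length and GC, 23 members were called lower, against 4.51% of all genes. Some of the 23 were entered with long transcripts, such as RPL27A at 4916 nt and RPL28 at 4796 nt. Their differences grew with the removal, from -1.25 to -1.72 and from -1.36 to -1.53. The entered lengths need not be those of the mRNAs measured, so the count of 23 depends on them.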

How the results depend on the processing

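The number of members called was within 1.5 times its value in 103 combinations of comparison and setting and moved further in 22. These combinations include the comparison without drug, where 0 members were called in the main fit, so the pooled numbers are no measure of stability. For nutlin-3a in the shARVCF lines (4 members) it was 10 with upper-quartile scaling, 17 with library series as a term, 13 with the first 8 libraries alone (12 higher and 1 lower) and 9 with the replicate block on line. For nutlin-3a in the control line (72), shARVCF against control under nutlin-3a (73) and the difference of effects (65), removing the trend with length and GC left 38, 43 and 23. With the first 8 libraries alone after that removal, nutlin-3a in the shARVCF lines had 12, nutlin-3a in the control line 45 and the difference 22. The settings with the longest transcript, and with upper-quartile scaling before the removal, were chosen after seeing the data, as were the previous one and a fit without genes of 16-fold range. With the longest transcript the calls were 8, 40, 46 and 25 in the shARVCF lines, in the control line, under nutlin-3a and for the difference, and with upper-quartile scaling before the removal 11 in the shARVCF lines and 29 for the difference. Leaving out each library gave 1 to 17, 71 to 73, 71 to 74 and 63 to 68 in the same order, and 0 in each case without drug. For the shARVCF lines the count was 17 without control nutlin replicate 1, and 1 without line 2 under either treatment. Without the control untreated library the comparisons that need it have no value.

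The direction turned for RPL15 with nutlin-3a in the control line, to -0.10 after the removal, and for RPLP0, to -0.049 after it and -0.20 with the longest transcript. RPS2 turned to -0.38, -0.29 with the first 8 libraries, -0.52 with the longest transcript and -0.24 with upper-quartile scaling, and RPS26 under nutlin-3a turned to 0.01 with the first 8 libraries after the removal. The replicate block changed no other count by over 1.5 times. The cause of these changes was not tested. The control untreated group has 1 library, and with the first 8 libraries alone so has the control nutlin group, so that spread then comes from the shARVCF lines. No read counts were used.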
